A study of Mus musculus with 4 samples.

Results

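The genes described here encode the subunits of the respiratory chain that are transcribed in the nucleus, chosen by symbol: the Ndufa, Ndufb, Ndufc, Ndufs and Ndufv genes of complex I, Sdha to Sdhd of complex II, the Uqcr genes of complex III, the Cox4 to Cox8 genes of complex IV and the Atp5 genes of complex V. The rule found 85 genes among the 32285 in the count tables, of which 38 belong to complex I, 4 to complex II, 8 to complex III, 18 to complex IV and 17 to complex V. The 5 groups follow the gene names, so Ndufa4, whose protein is now assigned to complex IV, is counted with complex I, and Ndufab1 and Cyc1 fall outside the rule. Of the 85 genes, 28 overlap another counted gene, 1 of them on the same strand (Ndufa13 with Yjefn3), and their values are uncertain to that extent.

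Nuclei ground out of dorsal skin were sequenced as 4 single-nucleus RNA libraries, each from a different wild type C57BL/6 mouse, all 8 weeks old. The unwounded libraries 1 and 2 came from intact skin of 2 mice, and the wounded libraries 1 and 2 from full-thickness excisional wounds of 2 other mice, taken 1 day after wounding. The labels name no transgene, induced mutation or drug, and call the material mixed skin cells. The comparisons ask how the subunit genes differ between wounded and intact skin and, within intact skin, between types of nuclei.

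As background, complexes I and II pass electrons from NADH and succinate to ubiquinone, complex III passes them to cytochrome c, complex IV passes them to oxygen, and complex V uses the resulting proton gradient to make ATP. Complexes I, III, IV and V contain proteins of both the nuclear and the mitochondrial genome, while complex II is built from nuclear genes alone. Skeletal muscle fibres, including those of the thin muscle sheet beneath mouse skin, depend heavily on this chain, whereas keratinocytes and wound leukocytes draw much of their ATP from glycolysis.

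The wounded libraries stood apart from the unwounded ones in ways that touch every comparison below. The unwounded libraries held 6575 and 9001 kept nuclei with 8275090 and 6475744 UMIs (unique molecule counts), and the wounded ones 2297 and 3706 nuclei with 1189262 and 1350822 UMIs. The nuclear RNA Malat1 made up 9.39% and 8.26% of UMIs in the unwounded libraries and 0.120% and 0.294% in the wounded ones. As a gauge of counts that follow gene length alone, 1466 olfactory and vomeronasal receptor genes, known mainly from sensory neurons of the nose, gave 0.00738 and 0.0103 CPM (a gene's share of its library's UMIs, on the usual scale) per kilobase of gene in the unwounded libraries and 0.550 and 0.510 in the wounded ones. At that density over all genes, counts expected from length alone came to 0.918% and 1.29% of UMIs in the unwounded libraries and 68.4% and 63.4% in the wounded ones. Nuclei with fibroblast markers made up 73.7% and 71.8% of the unwounded libraries and 0.871% and 1.24% of the wounded ones, and 84.1% and 87.9% of the wounded nuclei met no marker definition. In sums over nuclei, fewer cells of a type and less RNA per cell cannot be told apart.

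Promoter windows from RefSeq (GRCm38.p6, 250 bases before to 50 after the gene start) were matched to 69 of the 85 genes, 2 of them under another RefSeq symbol, to show what the regulatory sequence of these genes shares. Each motif was searched on both strands. The NRF1 motif, GCGC and again GCGC with any pair of bases between them, was found in 24.6% of the members' windows and in 8.80% of the 17491 protein-coding windows. The ETS motif CCGGAAG, the core read by GABP, was in 23.2% against 11.9%, the YY1 motif AAGATGGC in 13.04% against 3.22%, and the oestrogen-related receptor motif AAGGTCA in 11.6% against 4.08%. TATAAA was in 11.6% against 13.3%. The motif shares of the members were thus above those of all promoters for the 4 factor motifs and below for TATAAA; a match is a description of the letters and not a binding site. The upstream stretches below are from 7 members that differ in their behaviour after wounding, with matches to the 4 factor motifs in capitals, the strand of the gene, and no annotated exon within them.
Ndufv2 (complex I, fell; chr17:66101560-66101679, minus strand, overlapping NRF1 matches): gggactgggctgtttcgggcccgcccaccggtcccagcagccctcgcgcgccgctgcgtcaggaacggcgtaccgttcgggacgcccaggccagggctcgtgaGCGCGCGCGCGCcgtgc
Sdhd (complex II, did not pass the test; chr9:50603850-50603909, minus strand, ETS match): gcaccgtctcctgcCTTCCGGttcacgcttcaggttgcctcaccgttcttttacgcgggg
Uqcrh (complex III, fell; chr4:116075072-116075191, minus strand, ETS match): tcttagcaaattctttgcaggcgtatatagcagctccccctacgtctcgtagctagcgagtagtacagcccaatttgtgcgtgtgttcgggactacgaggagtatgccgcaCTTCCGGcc
Cox6a1 (complex IV, did not pass; chr5:115348982-115349101, minus strand, NRF1 match): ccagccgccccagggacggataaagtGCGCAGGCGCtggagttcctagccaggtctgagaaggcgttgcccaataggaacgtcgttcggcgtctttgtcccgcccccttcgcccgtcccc
Cox7b2 (complex IV, rose; chr5:71548206-71548325, minus strand, no match): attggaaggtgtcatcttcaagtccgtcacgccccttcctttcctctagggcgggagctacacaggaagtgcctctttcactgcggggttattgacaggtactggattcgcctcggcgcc
Atp5g3 (complex V, fell; chr2:73911327-73911446, minus strand, oestrogen-related receptor match): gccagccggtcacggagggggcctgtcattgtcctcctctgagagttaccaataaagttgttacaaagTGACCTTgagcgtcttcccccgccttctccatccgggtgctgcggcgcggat
Atp5h (complex V, fell; chr11:115419963-115420082, minus strand, NRF1 match): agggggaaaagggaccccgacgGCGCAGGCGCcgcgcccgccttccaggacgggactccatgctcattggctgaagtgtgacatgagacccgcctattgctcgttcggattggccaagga
Of the windows with an NRF1 match, 11 belonged to the 51 members with a window that fell after wounding and 6 to the 15 that did not pass the test. ETS matches were in 11 of the 51 and 4 of the 15.

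Summed over all kept nuclei, the 85 genes reached 1372 and 1306 CPM in the unwounded libraries and 764 and 820 CPM in the wounded ones. Both wounded sums lay below both unwounded sums, a mean of 1339 ± 46.6 against 792 ± 39.5 CPM (SD, n = 2 each), or 1.69-fold lower. The Wilson 95% intervals, which cover counting error only, ran from 1278 to 1397 CPM over the unwounded libraries and from 716 to 870 CPM over the wounded ones. The sum over a chosen list was given no test of its own. The sums stood 195 and 133 times above the level expected from gene length in the unwounded libraries and 1.46 and 1.69 times above it in the wounded ones. With the length-expected counts taken off both the members and the library totals, the sums were 1377 and 1313 against 760 and 914 CPM, 1.61-fold lower in the wounded libraries.

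**Figure D1:**
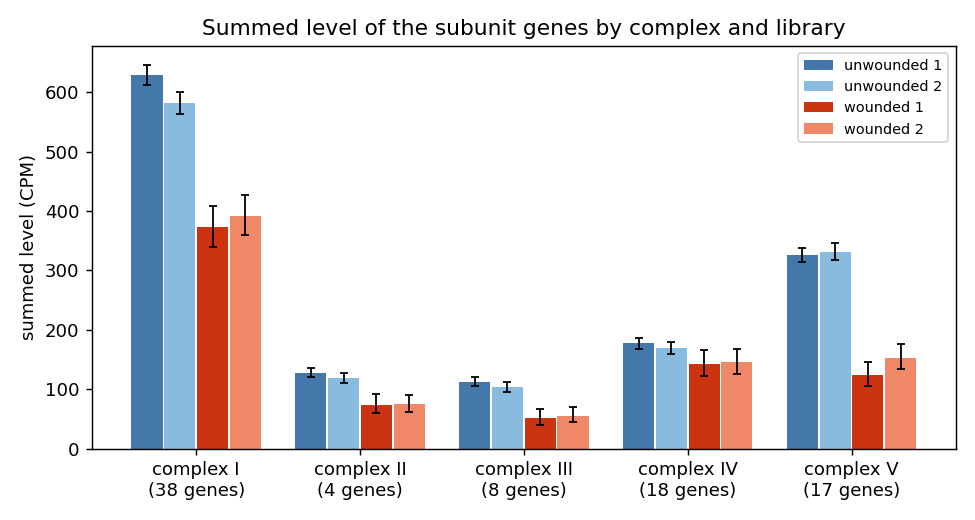
Summed level (CPM, bars from 0) of the subunit genes of complexes I to V in each of the 4 libraries; error bars are Wilson 95% intervals and cover counting error only. Both wounded bars are below both unwounded bars in all 5 complexes, and the largest ratio is in complex V (326 and 331 against 124 and 153 CPM, 2.37-fold), while complex I has the largest difference in CPM.

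The 5 complexes did not share 1 size of difference. Complex I reached 628 and 582 CPM in unwounded skin against 373 and 392 CPM in wounds, and complex II 127 and 119 against 74.0 and 74.8 CPM. Complex III reached 113 and 104 against 51.3 and 55.5 CPM. Complex V, the ATP synthase, differed most as a ratio, with 326 and 331 against 124 and 153 CPM, 2.37-fold lower. Complex IV, cytochrome c oxidase, had the smallest ratio, with 177 and 170 against 142 and 145 CPM, 1.21-fold lower. That small difference rested on 1 gene: without Cox7b2 the complex IV sums were 177 and 169 against 94.2 and 107 CPM, 1.72-fold lower. With the length-expected counts taken off, the log2 ratio of wounded to unwounded was -0.68 for complex I, -0.33 for II, -0.95 for III, -0.64 for IV and -0.78 for V, against -0.66, -0.73, -1.02, -0.27 and -1.24 without that step.

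Gene by gene, edgeR's quasi-likelihood test over the whole table tested 83 of the 85 genes (Cox8c and Ndufs8 had too few counts). At a Benjamini-Hochberg adjusted p under 0.05, 64 fell, 3 rose and 16 did not pass. Over the 20930 genes tested, 37.3% were called lower and 46.9% higher, against 77.1% and 3.61% of the members. By complex, 28 of 37 tested genes of complex I fell, 3 of 4 of complex II, 7 of 8 of complex III, 11 of 17 of complex IV and 15 of 17 of complex V, and the 3 that rose (Cox7b2, Cox4i2 and Cox7a1) were all of complex IV. The median log2 change was -1.64 over the tested members and 0.39 over all tested genes. Without a filter on low counts all 85 were tested, and 68 fell while 4 rose, against 29% and 46.6% of 29366 genes. With DESeq2, 40 fell and 3 rose, against 20% and 38.8%.

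These calls depend on the scale. The TMM factors, 0.782 and 0.731 for the unwounded and 1.33 and 1.32 for the wounded libraries, place fitted changes below the ratios of raw CPM. On library totals alone, 43 of the members fell and 4 rose, against 24.6% and 55.6% of all genes. The median of all genes moved to 1.19 and that of the members to -0.84. A change of scale shifts every gene by nearly the same amount. The gap of 2.03 log2 units between these medians thus stays by construction and is no check of the calls. In raw CPM, both wounded libraries lay below both unwounded ones for 56 of the 83 tested members, a pattern seen in 30.8% of all tested genes, and above them for 5, a pattern seen in 59.8%. With the length-expected counts subtracted, 52 of 79 tested members fell and 2 rose, while 45% of all genes were called lower and 30.6% higher. A set of 27 members fell under the settings as fitted and under each of 15 alternatives. How many of all genes did so was not counted, so the 27 have no share to be set against. Single fits called many genes of every kind lower, 5092 after thinning and 8511 without a filter on low counts. Among the 27 were Atp5a1, Atp5b, Atp5c1, Sdha, Ndufs1, Ndufs3, Ndufv1, Ndufv2, Uqcrc1 and Uqcrc2, which encode catalytic or core subunits. Also among them were Cox7c, Cox8a, Ndufs4, Atp5e, Atp5f1, Atp5g3, Atp5h, Atp5j, Atp5k, Cox6c, Cox7b, Ndufa3, Ndufa4, Ndufb3, Ndufb5 and Uqcrh. The 27 are thus not confined to catalytic or core subunits.

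**Figure D2:**
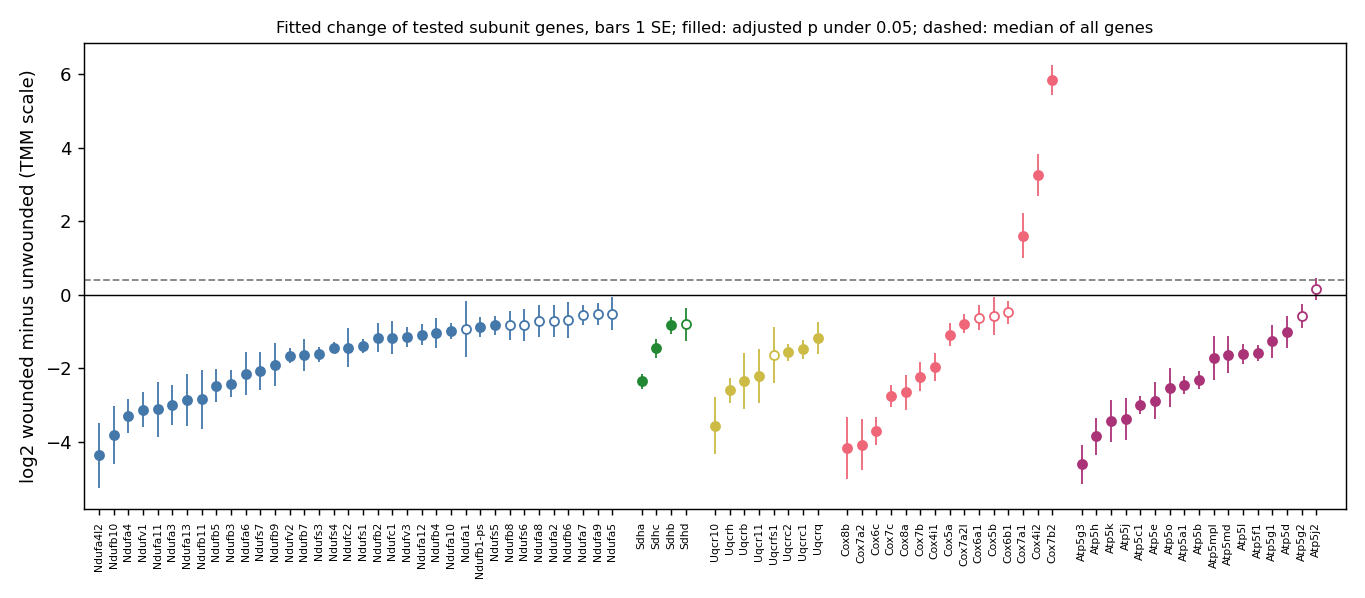
Fitted log2 change (wounded minus unwounded, TMM scale, bars 1 SE) of tested members ordered within complexes I to V; filled points have an adjusted p under 0.05 and the dashed line is the median of all genes (0.39). Cox6a2 and Cox6b2, with no count in the wounded libraries, are left out; most members lie below 0, and Cox7b2, Cox4i2 and Cox7a1 lie above it, also on library totals.

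In complex I, the highest counts belonged to Ndufs4, Ndufs1, Ndufv2 and Ndufs3. Ndufs4 encodes an accessory subunit of the module that takes electrons from NADH, and its loss causes Leigh syndrome in people. The gene spans 100 kb (GRCm38 chr13:114287795-114388258) and gave 124 and 107 CPM in unwounded skin against 77.4 and 68.8 CPM in wounds. The wounded libraries were lower without overlap, by -1.45 ± 0.15 log2 (SE; adjusted p = 6.02e-06, edgeR). Ndufs1, the largest core subunit (chr1:63143596-63176833), gave 54.7 and 45.7 against 31.1 and 34.1 CPM (-1.41 ± 0.19, edgeR adjusted p = 4.46e-05). Ndufv2, a core subunit of the NADH-oxidising module, gave 45.0 and 38.8 against 21.9 and 23.7 CPM (-1.66 ± 0.21, edgeR adjusted p = 2.43e-05), and Ndufs3, another core subunit, 37.6 and 38.6 against 21.9 and 20.7 CPM (-1.63 ± 0.21, edgeR adjusted p = 3.53e-05). All 4 fell without overlap between the groups. Ndufa10, an accessory subunit spanning 34.9 kb, gave 28.0 and 24.7 against 23.5 and 22.2 CPM and fell on the TMM scale (-0.99 ± 0.22, edgeR adjusted p = 0.00162), but not on library totals (-0.19, adjusted p = 0.474) or with DESeq2 (adjusted p = 0.084).

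The largest falls in complex I were in short genes with few counts. Ndufa4l2, a paralog of Ndufa4 known to be induced by hypoxia, had 53 and 26 UMIs in unwounded skin against 1 and 0 in wounds (edgeR adjusted p = 0.000874). Its counterpart Ndufa4 had 133 and 162 UMIs against 3 and 6 (16.1 and 25.0 against 2.52 and 4.44 CPM; -3.31 ± 0.46, edgeR adjusted p = 5.85e-05). Ndufb10, an accessory subunit of the membrane arm, had 8.46 and 4.94 against 0 and 1.48 CPM (edgeR adjusted p = 0.00101). Both paralogs were therefore lower, and the wounded counts of Ndufa4l2 and Ndufb10 are too few for a fold. The complex I genes that did not pass included Ndufa9 (12.7 and 15.1 against 18.5 and 14.8 CPM) and Ndufa7 (21.4 and 14.7 against 21.0 and 21.5 CPM), whose groups overlapped; these 2 were chosen after their values were seen.

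In complex II the calls differed by subunit, and whether the subunits differ from each other was not tested. Sdha, the flavoprotein that oxidises succinate (chr13:74322254-74350280, 28.0 kb), gave 56.3 and 51.6 CPM in unwounded skin against 18.5 and 17.8 CPM in wounds. It fell without overlap by -2.36 ± 0.20 log2 (edgeR adjusted p = 1.73e-06), and its wounded level was 1.20 and 1.24 times that expected from length. Sdhb, its iron-sulphur partner, gave 34.9 and 29.96 against 24.4 and 37.8 CPM, so the groups overlapped. Its call on the TMM scale (-0.84 ± 0.23, edgeR adjusted p = 0.00643) was absent on library totals (-0.034, adjusted p = 0.901), with length-expected counts subtracted (-0.063, adjusted p = 0.874) and without the wounded library 1 (-0.38, adjusted p = 0.25). Of the membrane anchors, Sdhc fell (31.8 and 32.6 against 26.1 and 14.8 CPM; -1.46 ± 0.26, edgeR adjusted p = 0.000361) and Sdhd did not pass (4.47 and 5.25 against 5.05 and 4.44 CPM; edgeR adjusted p = 0.118). The fitted change of Sdhd, from 6 and 6 wounded UMIs, was -0.81 ± 0.46 log2, close to that of Sdhb. Without Sdha the log2 ratio of the complex II sum went from -0.73 to -0.30.

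In complex III, Uqcrc2 and Uqcrc1, the core proteins, fell without overlap. Uqcrc2 gave 39.8 and 31.0 against 19.3 and 21.5 CPM (-1.57 ± 0.23, edgeR adjusted p = 7.33e-05), and Uqcrc1 24.3 and 21.9 against 16.0 and 12.6 CPM (-1.49 ± 0.26, edgeR adjusted p = 0.000279). Uqcrh, the hinge protein next to cytochrome c1, gave 19.1 and 20.2 against 6.73 and 4.44 CPM and fell by -2.61 ± 0.34 log2 (edgeR adjusted p = 3.34e-05). Uqcrq, a small subunit near cytochrome b, gave 11.1 and 6.49 against 7.57 and 5.92 CPM. Its groups overlapped, and its call (-1.18 ± 0.43, edgeR adjusted p = 0.0236) was lost on library totals (adjusted p = 0.438) and without the wounded library 2 (adjusted p = 0.201), the wounded library 1 (0.0707) or the unwounded library 1 (0.0792).

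In complex V, Atp5b and Atp5a1, the beta and alpha subunits of the catalytic head, fell without overlap. Atp5b gave 35.4 and 40.5 CPM in unwounded skin against 12.6 and 13.3 CPM in wounds (-2.33 ± 0.25, edgeR adjusted p = 8.03e-06), and Atp5a1 41.9 and 48.8 against 13.5 and 14.8 CPM (-2.46 ± 0.24, edgeR adjusted p = 4.39e-06). Atp5c1, the gamma subunit of the rotating stalk, gave 48.3 and 47.4 against 10.9 and 9.62 CPM (-3.01 ± 0.23, edgeR adjusted p = 8.78e-07). The wounded level of Atp5c1 was 0.811 and 0.771 times that expected from its 24.5 kb length, while Atp5b stood at 3.22 and 3.67 times. Atp5f1, of the stationary stalk, gave 35.6 and 33.2 against 21.0 and 18.5 CPM (-1.59 ± 0.22, edgeR adjusted p = 5.04e-05). Atp5g3, 1 of several genes for the proton-carrying c ring, had 21.9 and 24.2 against 0 and 2.96 CPM (edgeR adjusted p = 1.56e-05), and Atp5h, of the stationary stalk, 12.9 and 14.2 against 0.841 and 2.22 CPM (edgeR adjusted p = 3.3e-05). These 2 had too few counts in wounded skin for a fold. Atp5j2 and Atp5g2 were the complex V genes that did not pass; Atp5j2, with 13.9 and 8.96 against 18.5 and 25.2 CPM, was called higher on library totals and with length-expected counts subtracted, and was singled out after its values were seen.

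Complex IV has paired isoforms, 1 form made widely and another in heart and muscle, lung or testis. Of the wide forms, Cox4i1, the regulatory subunit, gave 20.4 and 24.2 against 5.05 and 14.1 CPM (-1.97 ± 0.37, edgeR adjusted p = 0.000498). Cox8a gave 11.8 and 8.65 against 3.36 and 2.22 CPM (-2.66 ± 0.47, edgeR adjusted p = 0.000296), Cox7b 11.7 and 9.88 against 4.20 and 3.70 CPM (-2.23 ± 0.40, edgeR adjusted p = 0.000376), and Cox7a2 10.3 and 6.02 against 0.841 and 0.740 CPM, 1 UMI in each wounded library (edgeR adjusted p = 0.000235). These 4 fell without overlap. Cox6a1 (8.34 and 7.88 against 8.41 and 9.62 CPM) and Cox6b1 (11.1 and 9.27 against 10.9 and 14.1 CPM) did not pass (edgeR adjusted p = 0.118 and 0.175), and their fitted signs, negative on the TMM scale, turned positive on library totals. Cox7c, a subunit with no paired form, gave 27.9 and 31.0 against 5.89 and 8.88 CPM (-2.76 ± 0.30, edgeR adjusted p = 9.28e-06). Per kilobase of gene it gave 13.4 and 14.9 CPM in the unwounded libraries, against 1.24 and 1.07 for Ndufs4. Cox7a2l, a paralog of Cox7a2, gave 22.2 and 23.9 against 27.7 and 18.5 CPM. Its call (-0.79 ± 0.26, edgeR adjusted p = 0.0136) was absent on library totals (0.012, edgeR adjusted p = 0.968) and without the wounded library 2.

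The restricted forms went both ways. The heart and muscle forms Cox6a2 (30 and 22 UMIs) and Cox8b (38 and 29 UMIs) were detected in both unwounded libraries, and had 0 and 0, and 0 and 1 UMIs, in the wounded ones. Cox6a2 was at least 2.97-fold lower, set against a floor of 3 counts over both wounded libraries (edgeR adjusted p = 0.000838), and Cox8b also fell (edgeR adjusted p = 0.000853). The testis form Cox6b2 went from 27 and 26 UMIs to 0 and 0, at least 3.08-fold lower (edgeR adjusted p = 0.000976). Summed over its 10 markers, skeletal muscle gave 6334 and 5209 CPM in unwounded skin against 568 and 620 CPM in wounds, with none of the markers at 0 in any library. In the wounds that sum stood at 1.33 and 1.56 times its length-expected level, against 1105 and 649 times in unwounded skin, and the part of this in the muscle forms was not tested.

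Cox7b2, a testis form whose gene spans 105 kb (chr5:71442824-71548205), had 3 and 3 UMIs in unwounded skin against 57 and 51 in wounds, 0.363 and 0.463 against 47.9 and 37.8 CPM (5.84 ± 0.42, edgeR adjusted p = 4.74e-07). The wounded level was 0.827 and 0.703 times that expected from length alone, and with those counts subtracted the gene had too few left to be tested. Cox4i2, a lung form linked to low oxygen, had 3 and 3 against 9 and 9 UMIs, 0.363 and 0.463 against 7.57 and 6.66 CPM (3.26 ± 0.57, edgeR adjusted p = 0.000287), at 1.27 and 1.20 times the length-expected level in the wounded libraries. With length-expected counts subtracted, with barcodes holding a Malat1 UMI alone or after thinning, Cox4i2 had too few counts to be tested. Cox7a1, another heart and muscle form, had 5 and 8 against 5 and 7 UMIs, 0.604 and 1.24 against 4.20 and 5.18 CPM (1.60 ± 0.61, edgeR adjusted p = 0.029), at 3.95 and 5.25 times the length-expected level. Its call was lost with a term for the replicate number (adjusted p = 0.11) and without the wounded library 1 (0.119) or 2 (0.237). Cox8c, a testis form, had 0 and 0 against 1 and 5 UMIs and was not tested.

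Gene span marked the wounded values across the 85 genes. The Spearman correlation of span with mean CPM was 0.53 in the unwounded and 0.75 in the wounded libraries; this is across genes that share libraries, and is given as a description. The 29 members under 5 kb summed to 223 and 235 CPM in unwounded skin against 62.2 and 98.5 CPM in wounds, 2.85-fold lower. The 31 of 5 to 10 kb were 1.75-fold lower, the 14 of 10 to 20 kb 1.45-fold and the 11 of at least 20 kb 1.48-fold lower. In both wounded libraries, 20 members stood above 2 times their length-expected level and 51 below it. Those above it included Cox7c (5.12 and 8.34 times), Cox6a1 (4.58 and 5.65), Uqcrq (4.73 and 3.99), Ndufs3 (3.90 and 3.99) and Atp5b (3.22 and 3.67).

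**Figure D3:**
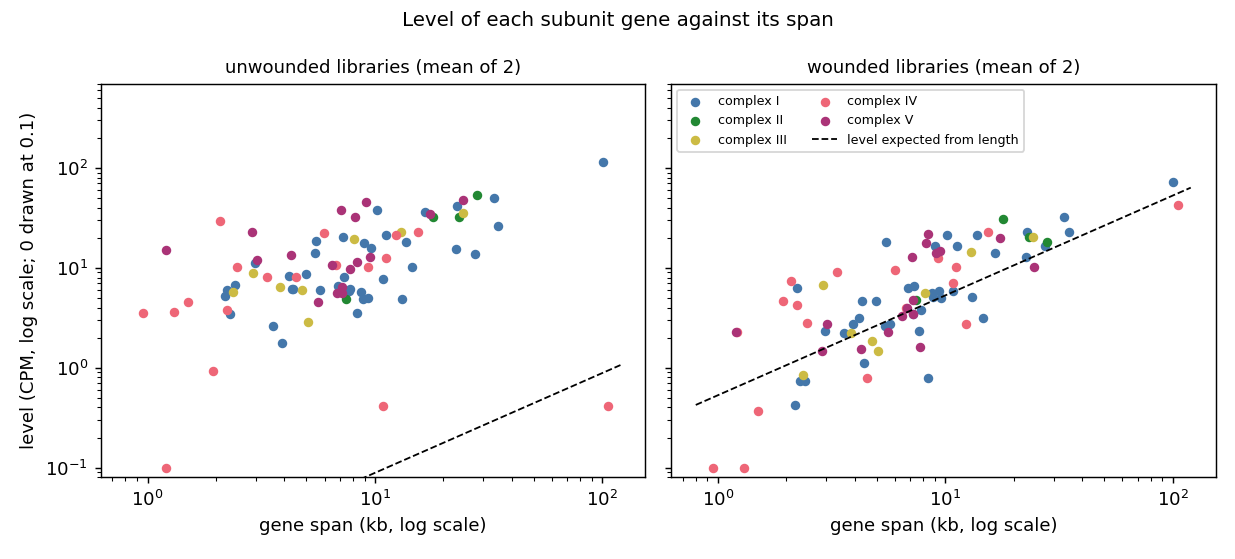
Mean level (CPM, log axis, 0 drawn at 0.1) of each of the 85 genes against its span (kb, log axis), in the unwounded (left) and wounded (right) libraries, coloured by complex; the dashed line is the level expected from length alone. In the unwounded libraries nearly all genes lie far above the line, while in the wounded libraries 51 lie below 2 times the line in both libraries, Cox7b2 (0.827 and 0.703 times) among them.

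Other genes of the mitochondrial programme are set here beside the 37.3% of all genes called lower and 46.9% called higher. Of 16 genes of the citric acid cycle and pyruvate dehydrogenase, 14 fell and 0 rose by edgeR (median log2 change -1.50; sum 1.43-fold lower); Ogdh gave 137 and 116 against 67.3 and 83.7 CPM, and Dlst 56.3 and 57.8 against 33.6 and 28.1 CPM. Of the 11 regulators of mitochondrial biogenesis, 9 fell and 0 rose (median -1.28; sum 1.33-fold lower), with Yy1 at 101 and 93.0 against 19.3 and 25.2 CPM and Nrf1 at 196 and 189 against 129 and 123 CPM. Of 36 tested assembly factors, 21 fell and 6 rose (median -1.19), while the summed CPM of the list was only 1.08-fold lower (990 and 967 against 920 and 896 CPM): Cox16, a complex IV factor, gave 353 and 375 against 91.7 and 88.8 CPM, Ttc19, of complex III, fell as well (81.6 and 71.8 against 34.5 and 41.5 CPM), and Coa7 rose (5.68 and 3.24 against 32.8 and 30.4 CPM), as did Nubpl, a gene of 215 kb (20.4 and 21.9 against 114 and 99.2 CPM). Nubpl stood at 0.967 and 0.905 times its length-expected level in the wounds, and Coa7 at 4.45 and 4.44 times. Among 12 tested carriers, 8 fell and 1 rose (median -1.41; sum 1.52-fold lower); Slc25a4, the ADP/ATP carrier of muscle, and Vdac1, a pore of the outer membrane, fell, and the uncoupling protein gene Ucp1 rose (0.121 and 0 against 7.57 and 9.62 CPM, the latter 1.70 and 2.33 times its length-expected level).

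The mitochondrially encoded subunits and the ribosomal proteins offer 2 points of comparison. Of 12 tested mitochondrially encoded subunits, 4 fell and 0 rose, a share near the 37.3% of all genes called lower, and their sum was 267 and 679 against 251 and 660 CPM, 1.04-fold lower, with replicate 2 higher than replicate 1 in both groups. Both mt-Nd4 (27.3 and 64.9 against 14.3 and 31.8 CPM) and mt-Co3 (56.2 and 159 against 43.7 and 109 CPM) were called, with overlapping groups. Of 79 tested cytosolic ribosomal protein genes, 57 fell and 0 rose, against the same 37.3% (median -1.49, against -1.64 for the members), and their sum was 1.33-fold lower against 1.69-fold for the members. The ribosomal genes thus had nearly as low a median as the members, and the difference between the lists was not tested.

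Within intact skin, nuclei were typed by marker genes that include no member, and 5 types had at least 50 nuclei in both unwounded libraries. Skeletal muscle-like nuclei (378 and 448) carried the highest summed level of the 85 genes, at 2145 and 1890 CPM. Adipocyte-like nuclei (70 and 53) gave 1770 and 1456 CPM, keratinocyte-like nuclei (142 and 187) 1445 and 1473 CPM, macrophage-like nuclei (157 and 138) 1308 and 1215 CPM and fibroblast-like nuclei (4844 and 6463) 1242 and 1221 CPM. Both muscle-like values lay above every value of the other types. The adipocyte-like and keratinocyte-like values overlapped, as did the macrophage-like and fibroblast-like ones, so neither pair can be ordered. Against the mean of the other 4 types, the muscle-like sum was 1.49-fold higher in library 1 and 1.41-fold higher in library 2.

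**Figure D4:**
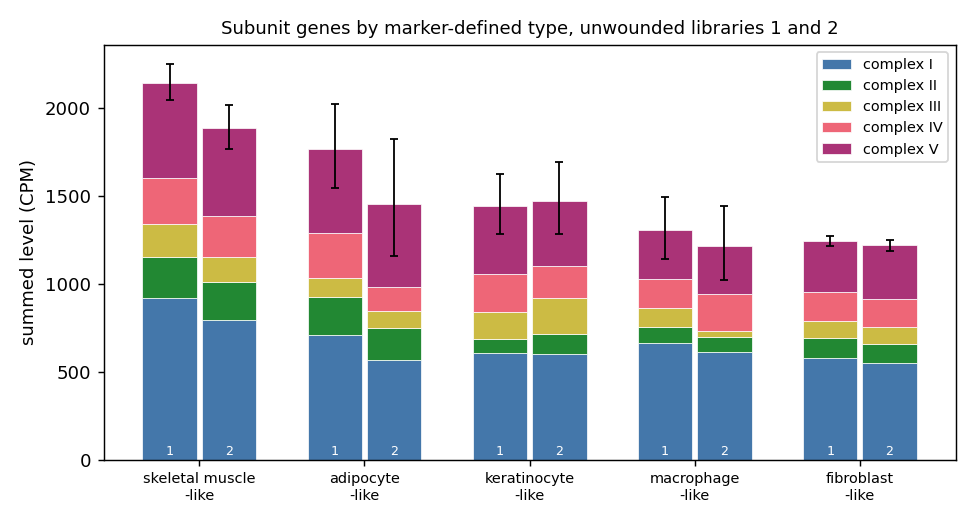
Summed level (CPM, bars from 0, stacked by complex) of the 85 genes in 5 marker-defined types of nuclei in the unwounded libraries 1 and 2; error bars are Wilson 95% intervals of the total and cover counting error only. The skeletal muscle-like bars (2145 and 1890 CPM) are the highest in both libraries, and the fibroblast-like bars (1242 and 1221 CPM) are among the lowest.

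Every complex was higher in muscle-like nuclei than the mean of the other types in both libraries. Complex II showed the largest ratio in both libraries, 235 and 216 CPM, 1.87-fold and 1.77-fold higher. Complex V gave 542 and 500 CPM, 1.51-fold and 1.41-fold higher. These ratios are against a mean, and adipocyte-like nuclei came close. They gave 219 and 177 CPM of complex II and 480 and 472 CPM of complex V, below the muscle-like values of the same library. The Wilson intervals of adipocyte-like and muscle-like nuclei overlapped in both libraries for both complexes. For complex II in library 1 they were 150 to 321 against 204 to 271 CPM. Complex I was 1.44-fold and 1.36-fold higher, complex IV 1.32-fold and 1.38-fold, and complex III 1.58-fold and 1.29-fold, the last with keratinocyte-like nuclei above it in library 2 (200 against 140 CPM). Titin (Ttn), the giant sarcomere gene, alone took 4.29% and 4.37% of muscle-like UMIs, which lowers the CPM of the other genes there.

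The single genes were tested as well. Only 11 members had enough counts for the low-count filter of the type comparison, 7 of them without counting the muscle-like sums, so their number is not used (21.6% of 5489 genes were called higher and 14% lower in that fit). Without a filter, 84 members were tested, and 20 were higher and 0 lower in muscle-like nuclei by edgeR's quasi-likelihood test with library as a block, at an adjusted p under 0.05. Over all 22677 genes, 7.64% were higher and 2.18% lower, and at an unadjusted p under 0.05 the members' counts were 31 higher and 0 lower. With at least 100 counts in total, 20 of 48 were higher and 0 lower, against 16.2% and 6.63% of genes. The 20 were Ndufs4, Ndufs1, Ndufs3, Ndufv1, Ndufv2 and Ndufb3 of complex I, Sdha, Sdhb and Sdhc of complex II, Uqcrc1, Uqcrc2 and Uqcrh of complex III, Cox5a and Cox7b of complex IV, and Atp5a1, Atp5b, Atp5c1, Atp5f1, Atp5g2 and Atp5l of complex V. Of the 20, 16 stood above the mean of the other types in both libraries. The other 4 did so in library 1 alone: in library 2, Uqcrc2 gave 19.4 CPM in muscle-like nuclei against a mean of 36.6 CPM, Ndufv1 8.63 against 17.6, Cox7b 6.47 against 6.98 and Atp5l 45.3 against 60.6 CPM. Uqcrc2, Ndufv1 and Cox7b were also below the fibroblast-like level there.

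Ndufs4 gave 203 and 188 CPM in muscle-like nuclei, and between 94.2 and 133 CPM in the 4 other types. It was higher by 1.27 ± 0.20 log2 than the mean of the other 4 types (edgeR adjusted p = 1.98e-08). This and the next 3 log2 values are from the fit without a filter. All are against that mean and not against fibroblast-like nuclei alone. Sdhc gave 62.6 and 86.3 CPM in muscle-like against 29.6 and 27.3 CPM in fibroblast-like nuclei, with 1 adipocyte-like value of 118 CPM from 6 UMIs above it (1.72 ± 0.32, edgeR adjusted p = 2.29e-06). Atp5f1 gave 57.6 and 75.5 against 32.6 and 29.2 CPM in fibroblast-like nuclei (1.97 ± 0.38, edgeR adjusted p = 5.83e-06), and Atp5b 73.8 and 64.7 against 30.4 and 38.6 CPM (1.69 ± 0.34, edgeR adjusted p = 1.5e-05). The mean behind these log2 values includes macrophage-like sums with only 1 and 0 UMIs of Atp5f1 and 1 and 1 of Atp5b. Each muscle-like value of these 4 genes was above both fibroblast-like values. Adipocyte-like nuclei gave 59.0 and 39.3 CPM of Atp5f1 (7 and 2 UMIs), above the muscle-like value in library 1. They gave 67.4 and 59.0 CPM of Atp5b (8 and 3 UMIs), below the muscle-like value of the same library.

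**Figure D5:**
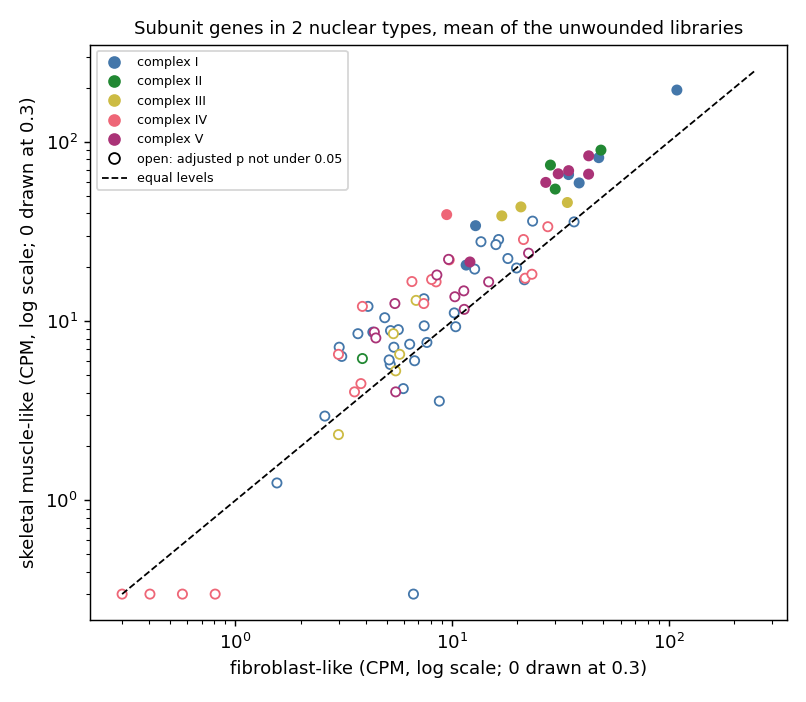
Mean level (CPM, log axes, 0 drawn at 0.3) of each of the 85 genes in skeletal muscle-like against fibroblast-like nuclei of the unwounded libraries, coloured by complex; filled points have an adjusted p under 0.05 for muscle-like against the mean of the other types, without a filter on low counts. The 20 filled points lie above the dashed line of equal levels, and the open complex I point at the lower edge, with 0 in muscle-like nuclei, is Ndufa4l2.

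The muscle isoforms were too thinly counted for such calls. Cox8b gave 11.3 and 12.9 CPM in muscle-like nuclei (9 and 6 UMIs) and 3.66 and 4.05 CPM in fibroblast-like nuclei (22 and 19 UMIs), and Cox6a2 8.76 and 4.31 CPM (7 and 2 UMIs) against 2.99 and 2.99 CPM (18 and 14 UMIs). Neither passed the test, and most of their UMIs lay in the far more numerous fibroblast-like nuclei; whether free RNA from muscle fibres contributes there was not tested. Cox7a1, the third muscle form, had 0 UMIs in muscle-like nuclei of both libraries. Of the testis and lung forms, Cox6b2 had 17 and 20 UMIs in fibroblast-like nuclei and at most 3 in any other type of either library. Its CPM was not highest there: 2.83 and 4.27, against 3.75 and 4.31 in muscle-like and 6.23 and 9.42 in macrophage-like nuclei. Keratinocyte-like nuclei gave 5.14 and 0 CPM and adipocyte-like nuclei 0 and 0. Over these 5 types, Cox4i2 (1 and 3 UMIs) and Cox7b2 (3 and 3) were counted in fibroblast-like nuclei alone, and Cox8c had 0. Fibroblast-like nuclei hold most of the UMIs, so counts this few do not place Cox4i2 or Cox7b2 in a type.

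Ndufa4l2 had 49 and 24 UMIs in fibroblast-like nuclei (8.15 and 5.12 CPM) and 0 in the 4 other types together, which hold 2028237 UMIs. Over all kept nuclei it had 53 and 26 UMIs, so some lay outside the 5 types. It was at least 4.61-fold higher in fibroblast-like nuclei than in the 4 other types pooled, against a floor of 3 counts (edgeR adjusted p = 0.00433, without a filter on low counts). In that fit 9.11% of all genes were higher and 1.2% lower. Most UMIs of the pool are muscle-like (798976 and 463545), where 3 counts correspond to 2.38 CPM. The zeros in keratinocyte-, adipocyte- and macrophage-like nuclei come from far fewer UMIs and bound little by themselves. The calls that follow are from the fit with the filter, where the mean of the other types includes the muscle-like nuclei. Fibroblast-like nuclei were lower for Atp5l (25.8 and 28.4 CPM; -0.95 ± 0.29, edgeR adjusted p = 0.00731) and Atp5c1 (-0.71 ± 0.24, edgeR adjusted p = 0.0148), 2 of 11 tested members against 11% of all genes (20.4% were higher), and neither was called without the filter. Keratinocyte-like nuclei were lower for Sdhb, with 1 and 3 UMIs (-1.98 ± 0.67, edgeR adjusted p = 0.0196; 11.3% of all genes were lower). Macrophage-like nuclei were lower for Atp5f1, with 1 and 0 UMIs (edgeR adjusted p = 0.0017), Atp5b, with 1 and 1 (0.00271), and Sdha, with 5 and 2 (0.0257), against 12.7% of all genes. Without the filter the Sdha call was lost. Sdhb and Atp5f1 reached the filter only with the muscle-like sums counted. Without it, Sdhb was still called lower in keratinocyte-like nuclei (edgeR adjusted p = 0.0451). Atp5f1 was still called lower in macrophage-like nuclei (edgeR adjusted p = 0.00262). Adipocyte-like nuclei gave 0 calls among 11 tested members by edgeR (1 at an unadjusted p under 0.05), against 13.1% of genes higher and 10.3% lower.

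Whether the wound difference exists within 1 type could be asked for keratinocyte-like nuclei alone, the 1 type with at least 50 nuclei in all 4 libraries. Their summed level was 1445 and 1473 CPM in unwounded skin against 665 and 902 CPM in wounds, the latter from 17 and 44 UMIs (Wilson 95% intervals 415 to 1065 and 672 to 1210 CPM). Both wounded values were below both unwounded values. The wounded keratinocyte-like nuclei numbered 59 and 136, but 29 and 50 with markers under 50 kb alone and 21 and 33 with at least 3 markers. The unwounded ones went from 142 and 187 to 103 and 130, and to 119 and 118. The type of the wounded nuclei thus depends on the marker definition. No member had enough counts to be tested there, so 0 calls says nothing about single genes (27% of 2346 genes were called higher and 17.1% lower). The nuclei without a type, which carry most of the wounded UMIs, gave 1447 and 1441 CPM in unwounded skin against 745 and 820 CPM in wounds. The wounded keratinocyte-like nuclei had 0.223% and 0.496% Malat1, against 6.29% and 5.89% in the unwounded ones, and the part of this in the result was not tested. A test of whether the difference varies between fibroblast-like and keratinocyte-like nuclei could not be run, since the wounded libraries held 20 and 46 fibroblast-like nuclei.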

How the data were processed

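Per the submitters' processing notes, the authors made the deposited UMI counts per gene and barcode with Cell Ranger 5.0.1 on GRCm38; whether intronic reads were counted is not given in the sources used here. Barcodes under 200 genes, or above 5% mitochondrial counts, were dropped. Scrublet's own threshold (scanpy 1.11.5) marked 0 to 11 barcodes per library, so the highest scores were removed at 0.8% per 1000 barcodes, 88 to 769 barcodes per library. The libraries shared at most 0.411% of their barcodes.

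Counts summed per library, or per library and type, were fitted with edgeR 4.0.16 (R 4.3.3; quasi-likelihood test, TMM, filterByExpr, Benjamini-Hochberg over all genes, threshold 0.05). A nucleus took the type with the most distinct markers detected, at least 2 and more than any other of 13 lists. Gene spans came from GENCODE vM21. Named were the 4 most abundant members of each complex, the 5 largest rises and falls with at least 5 CPM and groups that did not overlap, restricted isoforms with their counterparts, members of at least 30 kb, up to 4 calls per type and direction, and up to 2 per direction of other lists. 1 member enters the sums and counts but is not reported by name here. Members and lists were chosen with earlier results of these data known. Tested on simulated data, the wound comparison recovered 33.0% of 2-fold and 77.3% of 4-fold changes (17397 genes tested). The muscle comparison recovered 80.5% and 97.8% (4430 genes tested). The simulation changed few genes, as many up as down, and gave the groups no difference in counts that follow gene length. It used the dispersion of the wound fit for both comparisons, so the rates may not hold for the real data. Alternatives included DESeq2 1.42.0, other scales and filters, and leaving out each library.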

Additional observations from a re-analysis of the deposited data

How the results depend on the processing

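Over the named members, 465 alternative values kept their direction and side of the threshold, 32 lost the call, 4 gained one and 7 turned direction. The turned values were, as log2 changes, 0.81 (thinned to the smallest library), 0.39 (length-expected counts subtracted) and 0.17 (library totals) for Cox6a1, 0.43, 0.13 and 0.32 in the same order for Cox6b1, and 0.012 on library totals for Cox7a2l; the cause was not tested. After thinning, 31 members fell and 1 rose of 48 tested, with fewer counts by construction (5092 of all genes were lower and 8495 higher). With DESeq2 40 fell. With barcodes holding a Malat1 UMI alone 47 fell and 1 rose (6450 of all genes were lower and 5846 higher). The scale by library totals, the sums without Cox7b2 and the minimum of 100 counts were chosen after seeing the data. Over all genes, 9819 were called higher and 7810 lower, against 11638 and 5159 on library totals and 11386 and 5877 with DESeq2.

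Each library was left out in turn, with the lone library assumed to vary like the other group. The median log2 change then ran from -1.76 to -1.30 over the tested members and from 0.057 to 0.49 over all genes. Without the unwounded library 1 or 2, 20 and 17 of the members that fell had too few counts to be tested. The log2 ratio of sums then ran from -0.81 to -0.71 for all members, -0.72 to -0.61 for complex I, -0.78 to -0.68 for II, -1.08 to -0.96 for III, -0.30 to -0.24 for IV and -1.40 to -1.10 for V. Other ratios that moved by more than the spread were, for complex II, -0.33 (length-expected counts taken off), -0.65 (all deposited barcodes) and -0.30 (without Sdha), for complex III -1.14 (without Uqcrc2), for complex IV -0.64 (length-expected counts taken off), -0.080 (without Cox7c) and -0.78 (without Cox7b2), and for complex V -0.78 (length-expected counts taken off).

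With the replicate number as a block, 63 members fell and 2 rose (7858 of all genes were lower and 9721 higher). Deviations of same-numbered libraries had a correlation of 0.0457 over 17449 genes, and the labels state no pairing, so the number was not taken as one; the mitochondrial share of UMIs did go with it (0.0267% and 0.0251% in the libraries numbered 1, 0.0679% and 0.0660% in those numbered 2).

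By type, muscle-like nuclei had 20 members higher without the filter and 20 with at least 100 counts. With the filter all 11 tested members were higher, and 11 again without the library block. With markers under 50 kb, also filtered, 18 were higher. The counts with the filter are not used, since members can reach it through the muscle-like sums. The type fits were not repeated on library totals. Fibroblast-like nuclei had 1 higher and 0 lower without the filter. They had 1 lower with at least 3 markers and 7 lower with markers under 50 kb. Keratinocyte-like nuclei had 2 lower with markers under 50 kb. No share of all genes called was taken for these marker definitions, so their counts are not read as results. The fibroblast-like sum was 1207 CPM with at least 3 markers and 1253 CPM with markers under 50 kb. Within keratinocyte-like nuclei, those 2 gates were not run, since no type kept 50 nuclei in all 4 libraries. Depth limits the wounded libraries most: 3 counts, the limit for a gene at 0, correspond to 2.52 and 2.22 CPM there, against 0.363 and 0.463 CPM in the unwounded ones.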
